A study of Homo sapiens with 24 samples.

Results

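The genes described here are the expressed members of the ZNF series, the human genes whose symbol is ZNF followed by digits and whose mean over all 24 libraries was at least 300 normalized counts. The rule took 155 of the 475 ZNF genes in the table, out of 38735 named genes. The members were thus chosen by their mean level, and their being expressed is no finding. Just outside the threshold stood ZNF395 with a mean of 281, ZNF431 with 296 and ZNF79 with 299 normalized counts, and just inside it stood ZNF500 with 306, ZNF678 with 306 and ZNF41 with 308. In 124 members the mean was at least 300 in each of the 4 groups, in 19 in 3 groups, in 11 in 2 groups and in 1 member, ZNF503, in a single group.

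Most ZNF genes encode proteins with C2H2 zinc fingers, loops held by zinc on a pair of cysteines and a pair of histidines that read DNA in tandem arrays. The largest class in human also carries a KRAB domain, which recruits the co-repressor TRIM28 and, through it, the histone methyltransferase SETDB1, and is known for silencing transposable elements and nearby genes. Other members have no KRAB domain and act as parts of chromatin complexes, as activators at promoters, or on RNA and ribosomes.

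RNA was measured by poly-A sequencing in THP-1, a cell line of human monocytic leukaemia, after 24 h with 100 nM of the phorbol ester PMA, which drives it towards macrophages and which all groups share. DCVC_LPS cells received 5 µM S-(1,2-dichlorovinyl)-L-cysteine (DCVC), a metabolite of the solvent trichloroethylene, for 24 h and then lipopolysaccharide (LPS), the bacterial cell wall component sensed by TLR4, at 100 ng/mL for 4 h. LPS cells received medium and then the same LPS, DCVC cells received DCVC only, and Control cells medium only. Each group holds 6 libraries with the letters A to F. The title of the series asks whether DCVC inhibits the inflammatory transcription that LPS induces. Nothing in the labels ties the 6 libraries of a group to separate cultures, so the p-values below measure the spread between these libraries, which may be technical. Within a group the libraries lettered A and B, C and D, and E and F were nearer to each other than to most others, with a chi-square per degree of freedom of 3.13 to 22.0 in these 12 pairs and of 16.1 to 120.1 in the other 48, so 6 libraries may hold fewer than 6 independent samples. Calls are therefore also given with the means of these letter pairs, 3 values in each group. In bulk RNA fewer cells of a type and less RNA per cell cannot be told apart.

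Each library held between 18478618 and 30107819 reads in named genes. The summed level of 9 macrophage markers ran from 30463 to 33479 normalized counts in DCVC_LPS cells, 29764 to 33973 in LPS cells, 43948 to 48891 in DCVC cells and 72346 to 80414 in Control cells, and its part in the ZNF results was not tested. The summed markers of T, B, erythroid, epithelial and fibroblast cells reached at most 69.8 in any library, and the erythroid HBB was at 0 in all of them. The deposited scale leaves unequal totals between groups, with a mean of 21831254 in DCVC_LPS cells, 29427331 in LPS cells, 17774466 in DCVC cells and 21135356 in Control cells. Rescaling every library to the same total moved the median log2 change of all 13900 tested genes to -0.50 in LPS against Control, to 0.22 in DCVC against Control, to 0.36 in DCVC_LPS against LPS and to -0.33 in DCVC_LPS against DCVC, from -0.03, -0.03, -0.07 and -0.03 on the deposited scale. The number of ZNF genes called in each direction is therefore given on both scales. The counts of all tested genes at equal totals are given with each comparison, and are the background for the subsets and lists too.

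The members' sum on the deposited scale and their share of reads put the groups in different orders. Their summed normalized counts were 145438 ± 4220.3 in DCVC_LPS cells, 141523 ± 7180.4 in LPS cells, 126426 ± 4219 in DCVC cells and 128254 ± 4267 in Control cells (mean ± SD, n = 6 each). As a share of the reads in named genes they held 0.666 ± 0.0169% in DCVC_LPS cells, 0.481 ± 0.0183% in LPS cells, 0.711 ± 0.0138% in DCVC cells and 0.607 ± 0.0263% in Control cells. No LPS library reached the share of any library of another group.

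**Figure D1:**
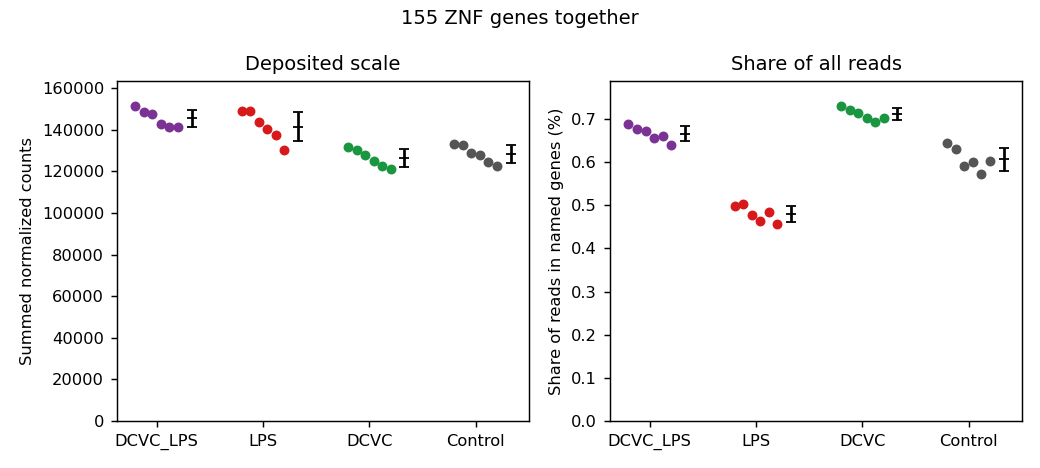
Summed normalized counts of the 155 ZNF genes (left) and their share of the reads in named genes in percent (right) for each of the 6 libraries per group, with mean and SD beside the points. On the deposited scale the LPS libraries lie above the Control libraries on average, while as a share of reads the LPS libraries lie below every other group.

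Members with the highest mean were ZNF697, ZNF24 and ZNF207. Per kilobase of a representative GENCODE 29 transcript the levels ran from 31.9 normalized counts for ZNF264 to 1884 for ZNF207, with a median of 163. A pattern for a C2H2 finger (2 cysteines and 2 histidines at the usual spacing) was found in the predicted protein of 150 members, and 10 or more fingers in 75. ZNF330, ZNF503, ZNF703, ZNF720 and ZNF862 had none. A stretch like the KRAB A box of ZNF10 was found in 70 members, called KRAB-like below. Of the members, 51 (32.9%) lie on chromosome 19, against 6.67% of all placed genes with a mean of at least 300, and 36 of these 51 are KRAB-like. KRAB-like members had a median level per kilobase of 131 normalized counts, against 226 in the 85 members with no such stretch.

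LPS against Control asks what 4 h of LPS did to these genes without DCVC. On the deposited scale 67 of the 155 members rose and 56 fell, 79.4% in all, which is near the 78.4% of all tested genes and the 82.6% of genes with a mean of at least 300 that were called. Of all tested genes 37.8% rose and 40.6% fell. Rescaled to equal totals, 29 rose and 95 fell, where of all 13900 tested genes 3118 rose and 8275 fell. The median log2 change of the members was 0.01. In 50 members all 6 LPS libraries lay above all 6 Control libraries and in 39 below, together 57.4%, against 56.8% of all genes. From the means of letter pairs, 61 rose and 48 fell. At least a 2-fold change was seen in 22 members, 12 higher and 10 lower. Of these, 10 had a mean under 300 in some group and so passed the threshold through the groups where they were high. The other 12, 6 higher and 6 lower, lie among the 124 members with at least 300 in every group, a condition that itself leaves out genes that are far lower in 1 group. Among the genes named below, the Control mean was under 300 for ZNF503, ZNF778 and ZNF140, and the LPS mean was under 300 for ZNF521 and ZNF100, so these changes are not independent of how the members were chosen.

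ZNF503, a nuclear co-repressor of the NET family, had 243, 557 and 959.6 normalized counts (lowest, median and highest of 6 libraries) in LPS cells, against 108, 140.0 and 184 in Control cells. All LPS libraries lay above all Control libraries, but the LPS libraries spread over a wide range, and the log2 change was 2.03 ± 0.22 (SE). Since LPS was the only group with a mean of at least 300, ZNF503 entered the members through the LPS libraries, and its changes are given as a description with no test. Of its 50-base stretches 10.3% also occur in other transcripts, mostly the antisense ZNF503-AS2, so its level is uncertain where reads were not assigned by strand. ZNF697, which has 11 finger patterns and the highest level of all members, had 7188, 9686 and 10409 normalized counts in LPS cells, against 1284, 2897 and 3269.7 in Control cells, again with no overlap, and rose by 1.95 ± 0.18 on the log2 scale. The KRAB-like ZNF778 reached 685 ± 95.4 normalized counts in LPS cells and 227 ± 18.6 in Control cells (mean ± SD, n = 6 each), a log2 change of 1.58 ± 0.08 (limma adjusted p = 4.79e-15). ZNF202, known as a repressor of genes of lipid metabolism, reached 1143 ± 141 in LPS cells and 388 ± 56.4 in Control cells, a log2 change of 1.56 ± 0.09 (limma adjusted p = 3.92e-14). ZNF598, the ubiquitin ligase that marks collided ribosomes, ran from 3246 to 3807 in LPS cells and from 1203 to 1613 in Control cells, with a log2 change of 1.41 ± 0.07 (limma adjusted p = 9.5e-16). The other rises of the 8 named ones were ZNF121 (1.30), ZNF593 (1.16) and ZNF140 (1.14), each with all LPS libraries above all Control libraries. ZNF593 shares 92.6% of its 50-base stretches with the overlapping transcript AL391650.1 and is uncertain.

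Falls were larger than rises at the top of the ranking, and the part of the choice by mean level in this was not tested. A gene low only in LPS cells can pass the threshold through the other groups, while a gene high only there passes through LPS alone. ZNF521, a factor of early blood progenitors with 27 finger patterns, had 44.0, 62.9 and 68.3 normalized counts in LPS cells, against 324, 580.1 and 651 in Control cells. The LPS libraries all lay far below the lowest Control library, and the log2 change was -3.12 ± 0.15 (limma adjusted p = 1.2e-15). ZNF516, known in mouse for activating the brown fat gene Ucp1, had 500.0, 531 and 688 in LPS cells and 3053, 4064 and 4752 in Control cells, a log2 change of -2.80 ± 0.10 (limma adjusted p = 2.31e-18). ZNF618 had 246, 364 and 454 in LPS cells and 1995, 2141 and 2368 in Control cells, with a log2 change of -2.60 ± 0.10 (limma adjusted p = 4.33e-17). In both genes the groups were far apart. ZNF703, the paralogue of ZNF503 known as an oncogene of luminal breast cancer, moved the other way from ZNF503, with 316, 471 and 493 normalized counts in LPS cells, against 1639, 2263 and 3559 in Control cells, and a log2 change of -2.40 ± 0.14 (limma adjusted p = 5.47e-14). ZNF469, the gene of brittle cornea syndrome, had a log2 change of -1.66 ± 0.09, the KRAB-like ZNF561 of -1.61 ± 0.15, ZNF106 of -1.28 ± 0.10 and the KRAB-like ZNF100 of -1.11 ± 0.09, with no overlap between the groups. In all 4, and in every other change named for LPS against Control in these paragraphs, the direction was the same after rescaling to equal totals. The falls could not have turned, since equal totals lower every LPS library against every Control library.

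**Figure D2:**
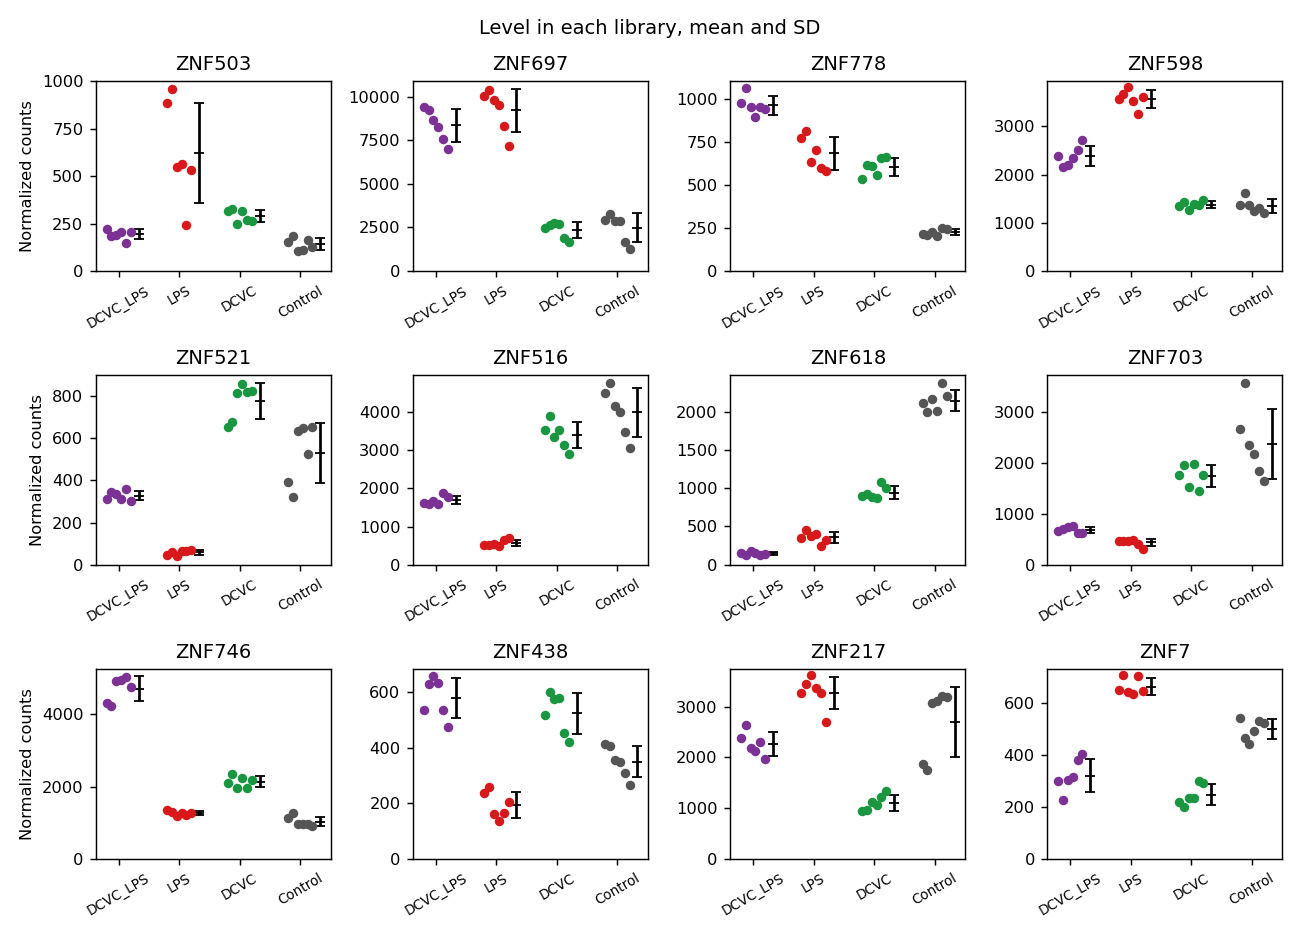
Normalized counts (linear axes from 0) of 12 named ZNF genes in each library of the DCVC_LPS, LPS, DCVC and Control groups, with mean and SD beside the points. ZNF503 is high in LPS cells and near the Control level in DCVC_LPS cells, ZNF521 and ZNF516 are lowest in LPS cells, and ZNF746 is highest in DCVC_LPS cells.

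The promoters of 3 of these genes are shown because they hold motifs and because a pair of them are neighbours with opposite changes. ZNF121, with a log2 change of 1.30 after LPS, and ZNF561, with -1.61, lie on the minus strand of chromosome 19 with 20146 bases between them (chr19:9560353-9584533 and chr19:9604680-9621399, GRCh38). The windows run from 250 bases before to 50 bases after the start in RefSeq (GRCh38.p14) and are written 5' to 3' on the gene's strand. In the ZNF121 window (chr19:9584455-9584754, minus strand) the capitals mark, in order, the core of a ZNF143 site (ACTACANNT), a cAMP response element (CRE, TGACGTCA) and an antioxidant response element (TGACNNNGC, here on the reverse strand). In the ZNF561 window (chr19:9621183-9621482, minus strand) they mark a CRE from base 228, and in the ZNF140 window (chr12:133080673-133080972, plus strand) a pair of ZNF143 cores (on the reverse strand) from bases 19 and 142.
ZNF121: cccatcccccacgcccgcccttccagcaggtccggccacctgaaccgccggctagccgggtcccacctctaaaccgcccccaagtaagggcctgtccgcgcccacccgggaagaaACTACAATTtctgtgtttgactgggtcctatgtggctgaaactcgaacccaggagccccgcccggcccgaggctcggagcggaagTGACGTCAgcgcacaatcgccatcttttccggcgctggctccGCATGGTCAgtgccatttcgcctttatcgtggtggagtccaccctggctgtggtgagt
ZNF561: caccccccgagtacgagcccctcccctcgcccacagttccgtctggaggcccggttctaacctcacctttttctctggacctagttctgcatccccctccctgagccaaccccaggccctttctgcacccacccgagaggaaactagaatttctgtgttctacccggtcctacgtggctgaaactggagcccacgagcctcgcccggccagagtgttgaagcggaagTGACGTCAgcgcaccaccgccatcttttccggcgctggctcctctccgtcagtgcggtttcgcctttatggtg
ZNF140: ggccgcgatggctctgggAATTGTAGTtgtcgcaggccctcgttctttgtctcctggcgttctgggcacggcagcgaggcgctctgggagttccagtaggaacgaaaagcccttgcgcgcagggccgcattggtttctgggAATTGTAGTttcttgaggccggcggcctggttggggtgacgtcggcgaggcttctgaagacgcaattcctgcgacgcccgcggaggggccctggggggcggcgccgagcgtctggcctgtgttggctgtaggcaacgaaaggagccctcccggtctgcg
The ZNF121 and ZNF561 windows were identical in 212 of 332 aligned columns (63.9%), with a longest shared run of 25 bases, and both hold a CRE near the start. A match is a description of letters, not of a bound site. ZNF140 shares 19.4% of its 50-base stretches with other transcripts, mostly its neighbour ZNF891, and is uncertain to that extent.

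Promoter windows were found for 132 members, 167 windows in all, and each motif was searched on both strands. The ZNF143 core stood in 11.4% of the members' windows, against 3.58% of all 35116 windows, and the CRE in 5.99%, against 1.85%. The ZNF143 core was cut from a longer form after matches of that form had been seen, so its share is a description only. Shares were closer for the antioxidant response element (16.2% against 13.3%), the AP-1 motif TGANTCA (7.78% against 7.71%) and the kappaB motif (5.39% against 5.91%). The median GC content of the members' windows was 63.7%, against 58.7%. The 19 members with a ZNF143 core, among them ZNF121, ZNF140, ZNF697, ZNF146 and ZNF189, counted 12 that rose and 5 that fell in LPS cells against Control, and 7 and 9 at equal totals, where over all members the count was 67 and 56, and 29 and 95 at equal totals. Of all tested genes 37.8% rose and 40.6% fell in LPS against Control, and at equal totals 3118 of 13900 rose and 8275 fell. Whether the members with and without a core differed was not tested.

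DCVC against Control asks what the compound did by itself. Of the 155 members 50 rose and 31 fell, 52.3% in all, against 59.7% of all tested genes (27.5% raised and 32.2% lowered), and the median log2 change was 0.07. Rescaled to equal totals, 101 rose and 10 fell, where of all 13900 tested genes 6412 rose and 2790 fell. Groups without overlap were seen in 23 members above and 16 below, 25.2% in all, against 36.5% of all genes. With the means of letter pairs 30 rose and 20 fell. Changes of at least 2-fold numbered 3 in each direction, 4 of the 6 in members with a mean under 300 in some group. Of the groups compared here, that mean was the Control one for ZNF778 and ZNF324 and the DCVC one for ZNF7, and for ZNF503 both, among the genes named below. Outside this comparison it was the DCVC_LPS mean for ZNF618 and ZNF503 and the LPS mean for ZNF521, ZNF438 and ZNF862.

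ZNF778 had 537, 616 and 663 normalized counts in DCVC cells, against 206, 223 and 251 in Control cells, with no overlap and a log2 change of 1.42 ± 0.08 (limma adjusted p = 6.19e-13). ZNF746, also called PARIS, is a KRAB-like repressor that the ubiquitin ligase parkin degrades. It had 1969.8, 2132 and 2338 normalized counts in DCVC cells, against 902, 971 and 1252 in Control cells, again apart, and a log2 change of 1.06 ± 0.07 (limma adjusted p = 7.59e-12). ZNF503 had a higher mean in DCVC cells too, at 290.4 ± 33.2 against 141 ± 31.4 in Control cells, with a log2 change of 1.06 ± 0.22, and of 0.87 within the libraries lettered E and F alone. Smaller rises without overlap were ZNF142 (0.82), ZNF324 (0.67), ZNF521 (0.59), ZNF438 (0.58) and ZNF672 (0.58). ZNF324 shares 34.2% of its 50-base stretches with other transcripts, mostly ZNF446, and is uncertain.

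ZNF217 led the falls. This breast cancer oncogene, a part of co-repressor complexes with the demethylase LSD1, had 931, 1093 and 1342 normalized counts in DCVC cells, against 1759, 3095 and 3211 in Control cells. All DCVC libraries lay below all Control libraries, although the Control libraries lettered A and B stood well under the other 4, and the log2 change was -1.25 ± 0.14 (limma adjusted p = 3.19e-08). ZNF618 had 874, 912 and 1076 in DCVC cells, against 1995, 2141 and 2368 in Control cells, a log2 change of -1.19 ± 0.10 (limma adjusted p = 1.02e-09). ZNF7, a KRAB-like gene, had 199, 234 and 299 in DCVC cells, against 443, 508 and 543 in Control cells, a log2 change of -1.03 ± 0.11 (limma adjusted p = 3.58e-08). It shares 15.6% of its 50-base stretches, mostly with COMMD5. Further falls without overlap were ZNF783 (-0.64), ZNF469 (-0.58), ZNF319 (-0.56), ZNF791 (-0.51) and ZNF281 (-0.51), the last a regulator of stem cell genes.

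Neighbours on chromosome 7 did not move alike. Within 1 Mb of ZNF746 (chr7:149472696-149497817) lie 5 further members, all of them KRAB-like, a region looked at after the values of ZNF746 were known. In DCVC against Control ZNF783 fell (-0.64) and ZNF862 rose (0.40, with 30.7% of its 50-base stretches shared with AC004877.1), while the changes of ZNF777 (0.12), ZNF398 (0.13) and ZNF282 (0.08) did not pass the test. In DCVC_LPS against LPS the log2 changes were 1.90 (ZNF746), 0.87 (ZNF862), 0.07 (ZNF777), -0.07 (ZNF398), -0.34 (ZNF282) and -0.71 (ZNF783). Up in LPS against Control were ZNF783 (0.79), ZNF777 (0.57), ZNF282 (0.47) and ZNF746 (0.305), and down ZNF398 (-0.06) and ZNF862 (-0.94). The signs were the same in DCVC_LPS against DCVC, with ZNF746 (1.14), ZNF783 (0.71), ZNF777 (0.52), ZNF282 (0.04), ZNF398 (-0.25) and ZNF862 (-0.47).

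DCVC_LPS against LPS asks what a day of DCVC before LPS changed in stimulated cells. On the deposited scale 72 members rose and 33 fell, 67.7% in all, against 72.7% of all tested genes, and the median log2 change was 0.13, against -0.07 over all genes. Of all genes 33.3% rose and 39.4% fell, and of the members 46.5% rose and 21.3% fell. Rescaled to equal totals, 123 members rose and 10 fell, where of all 13900 tested genes 7578 rose and 3051 fell. The groups did not overlap in 44 members above and 24 below, 43.9% in all, against 51.7% of all genes. As letter-pair means 54 rose and 28 fell. The LPS mean was under 300 for ZNF521, ZNF438, ZNF100, ZNF302 and ZNF736 among the rises named below, and the DCVC_LPS mean for ZNF503, ZNF618 and ZNF639 among the falls. This comparison shares its LPS libraries with LPS against Control.

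ZNF521 had 302, 325 and 360.5 normalized counts in DCVC_LPS cells, against 44.0, 62.9 and 68.3 in LPS cells, and all DCVC_LPS libraries stood far above the LPS libraries. The log2 change was 2.48 ± 0.15 (limma adjusted p = 4.19e-13). ZNF746 had 4232, 4854 and 5046 in DCVC_LPS cells, against 1189, 1261 and 1356 in LPS cells, a log2 change of 1.90 ± 0.07 (limma adjusted p = 8.06e-17) and its highest level of the 4 groups. ZNF438, a C2H2 factor, had 475, 582 and 658 in DCVC_LPS cells, against 137, 184 and 259 in LPS cells, a log2 change of 1.603 ± 0.14 (limma adjusted p = 3e-10). The groups did not overlap in either gene. ZNF516 reached 1692 ± 116 in DCVC_LPS cells and 568 ± 76.9 in LPS cells, a log2 change of 1.58 ± 0.10 (limma adjusted p = 5.64e-13). The other 4 large rises were ZNF100 (0.97), ZNF142 (0.97), ZNF302 (0.95) and ZNF736 (0.94), and ZNF100, ZNF302 and ZNF736 are KRAB-like. ZNF100 shares 13.5% and ZNF302 11.9% of their 50-base stretches with other transcripts.

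ZNF503 had 146, 199 and 220.1 normalized counts in DCVC_LPS cells, against 243, 557 and 959.6 in LPS cells, which did not overlap, and a log2 change of -1.57 ± 0.22, with the LPS libraries again those that let it pass the threshold. ZNF618 had 129, 148 and 176 in DCVC_LPS cells, against 246, 364 and 454 in LPS cells, a log2 change of -1.25 ± 0.10 (limma adjusted p = 1.3e-10). Its level was lowest of the 4 groups in DCVC_LPS cells. ZNF7 had 225, 309 and 403 in DCVC_LPS cells, against 635, 649 and 708 in LPS cells, a log2 change of -1.07 ± 0.11 (limma adjusted p = 7.29e-09). Smaller falls without overlap were ZNF706 (-0.84), ZNF609 (-0.82), ZNF639 (-0.79), ZNF710 (-0.75) and ZNF783 (-0.71). ZNF710 shares 15.7% of its 50-base stretches, mostly with the antisense ZNF710-AS1.

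DCVC_LPS against DCVC gives the LPS change in cells that had received DCVC. In it 67 members rose and 28 fell, 61.3% in all, against 62.1% of all tested genes (29.9% raised and 32.2% lowered), with a median of 0.13. After rescaling to equal totals 30 members rose and 79 fell, where of all 13900 tested genes 2263 rose and 7322 fell. The letter-pair means gave 50 rises and 20 falls. The groups did not overlap in 41.3% of the members, against 45.1% of all genes. The largest rises without overlap were ZNF697 (1.85), ZNF746 (1.14), ZNF202 (1.07), ZNF121 (1.04) and ZNF217 (1.04). ZNF217 had 1962, 2245 and 2635 normalized counts in DCVC_LPS cells, against 931, 1093 and 1342 in DCVC cells. The largest falls were ZNF618 (-2.66), ZNF366 (-1.50), ZNF703 (-1.34), ZNF521 (-1.23) and ZNF516 (-0.995). The DCVC_LPS mean was under 300 for ZNF618 and ZNF366, so their falls are not independent of how the members were chosen. Of the 9 members with at least a 2-fold change here, 3 had a mean under 300 in some group. ZNF366, a dendritic cell factor also called DC-SCRIPT, had 226, 245 and 269.6 in DCVC_LPS cells, against 665, 692 and 781 in DCVC cells, with no overlap.

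The LPS changes with and without DCVC share no library and can be set side by side. Both called 53 members raised and 25 lowered. ZNF503 and ZNF276 (-0.26 with DCVC and 0.24 without, 27.2% of its 50-base stretches shared with FANCA) were the 2 members raised by LPS without DCVC and lowered with it. ZNF503 passed the threshold through its LPS libraries, so its place here and at equal totals below is a description with no test. The 4 lowered without DCVC and raised with it were KRAB-like genes of chromosome 19, ZNF430, ZNF766, ZNF845 and ZNF91, the last known for silencing SVA elements, and they changed by between 0.20 and 0.33 with DCVC and between -0.26 and -0.17 without. At equal totals the changes of these 4 with DCVC lay between -0.10 and 0.03 and did not pass the test (limma adjusted p between 0.246 and 0.956), and ZNF276 stood at -0.23 without DCVC (limma adjusted p = 0.0547), while 21 members were raised and 70 lowered in both settings. Other members had opposite calls at equal totals. ZNF644, ZNF691 and ZNF746 were raised with DCVC (0.26, 0.25 and 0.85) and lowered without it (-0.30, -0.17 and -0.17), and ZNF503 and ZNF622 were lowered with DCVC (-0.88 and -0.22) and raised without it (1.56 and 0.25). With the means of letter pairs ZNF430 alone of the 6 with opposite calls on the deposited scale passed the test in both settings (limma adjusted p = 0.0351 with DCVC and 0.0478 without). A further 27 members fell without DCVC and were not called with it, and 12 rose without DCVC and were not called with it. The difference between the changes (DCVC_LPS minus DCVC, less LPS minus Control) was tested itself. It was above 0 in 42 members and below 0 in 29, 45.8% in all, against 45.7% of all tested genes (22.0% above and 23.7% below), and in 74 and 14 after rescaling to equal totals and 33 and 35 with TMM factors. Among all 13900 tested genes these counts were 4600 and 2232 at equal totals and 2625 and 3720 with TMM factors. With the means of letter pairs it was above 0 in 25 members and below 0 in 14. Within the libraries lettered A and B, C and D, and E and F taken alone, the members called numbered 114, 120 and 100.0 in LPS against Control, 68, 79 and 41 in DCVC against Control, 96, 111 and 79 in DCVC_LPS against LPS, 86, 92 and 65 in DCVC_LPS against DCVC, and 54, 84 and 30 for the difference.

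ZNF521 changed by -1.23 after LPS with DCVC and by -3.12 without, a difference of 1.89 ± 0.21 (limma adjusted p = 1.42e-07). For ZNF516 the changes were -0.995 with and -2.80 without, a difference of 1.81 ± 0.14 (limma adjusted p = 3.82e-10). ZNF469 (1.18), ZNF703 (1.06) and ZNF100 (1.06) followed, so the LPS falls of these 5 genes were smaller where DCVC had been given, and ZNF100 did not pass the test there. ZNF503 changed by -0.59 with DCVC and by 2.03 without, a difference of -2.62 ± 0.31 that rests on the LPS libraries through which it passed the threshold. The other differences below 0 among the named 5 were ZNF778 (-0.91), ZNF710 (-0.84), ZNF692 (-0.69) and ZNF593 (-0.66). ZNF521 and ZNF100 had a mean under 300 in LPS cells and ZNF778 in Control cells. Their differences are therefore not independent of how the members were chosen. ZNF692 was at -0.42 (limma adjusted p = 0.15) within the libraries lettered E and F and did not pass the test with the means of letter pairs (limma adjusted p = 0.0724). For ZNF618 and ZNF697 the differences, -0.07 ± 0.15 (limma adjusted p = 0.748) and -0.11 ± 0.26 (limma adjusted p = 0.771), did not pass the test, and their signs turned at equal totals.

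**Figure D3:**
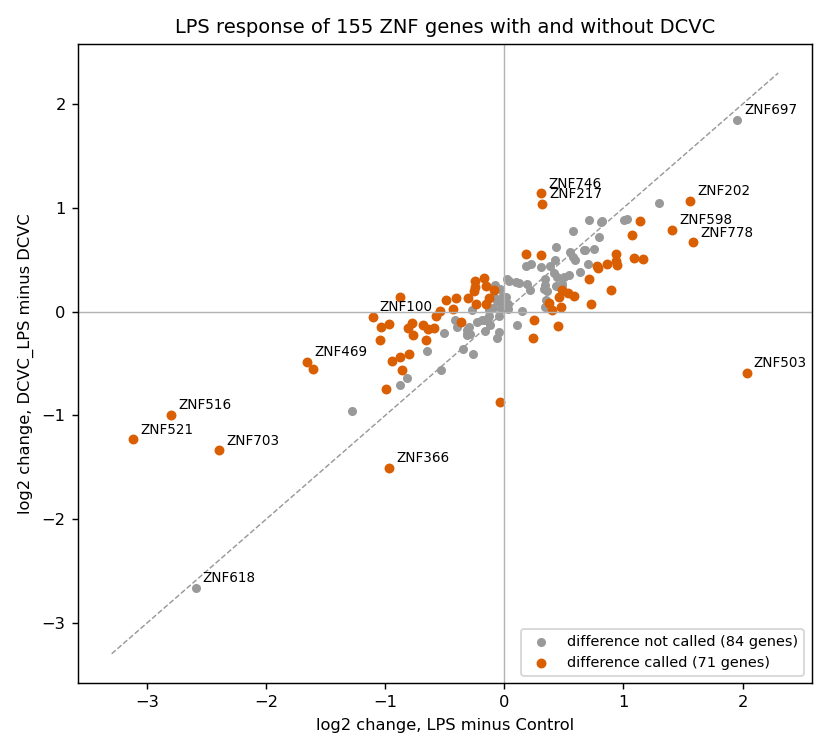
Log2 change after LPS in cells given DCVC (vertical, DCVC_LPS minus DCVC) against the log2 change without DCVC (horizontal, LPS minus Control) for the 155 ZNF genes, with orange points where the difference was called (71 genes) and a dashed line of equal change. ZNF521 (-1.23 with and -3.12 without DCVC) and ZNF516 lie above the line, ZNF503 (-0.59 with and 2.03 without) lies far below it, and ZNF618 and ZNF697 lie near it.

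KRAB-like members and the rest were also counted apart. Over all tested genes 33.3% rose and 39.4% fell in DCVC_LPS against LPS, 29.9% and 32.2% in DCVC_LPS against DCVC, and 37.8% and 40.6% in LPS against Control. At equal totals the counts raised and lowered among all 13900 genes were 7578 and 3051, 2263 and 7322, and 3118 and 8275, in that order. In DCVC_LPS against LPS 35 of the 70 KRAB-like members rose and 11 fell, and 37 of the 85 others rose and 22 fell, with 59 and 2 of the KRAB-like members and 64 and 8 of the others at equal totals. In DCVC_LPS against DCVC 37 KRAB-like members rose and 6 fell, and 30 of the others rose and 22 fell, while after rescaling to equal totals it was 15 and 30 of the KRAB-like members and 15 and 49 of the others. Of the 36 KRAB-like members on chromosome 19, 21 rose and 0 fell in DCVC_LPS against LPS by limma, with a median of 0.27. At an unadjusted p under 0.05 limma gave 1 fall, edgeR and DESeq2 gave 0, and at equal totals all 36 rose. The 34 KRAB-like members on other chromosomes counted 14 that rose and 11 that fell, with a median of 0.07, and 23 and 2 at equal totals. In LPS against Control the KRAB-like members on chromosome 19 counted 12 that rose and 13 that fell, and 6 and 25 at equal totals. The difference between these subsets was not tested.

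**Figure D4:**
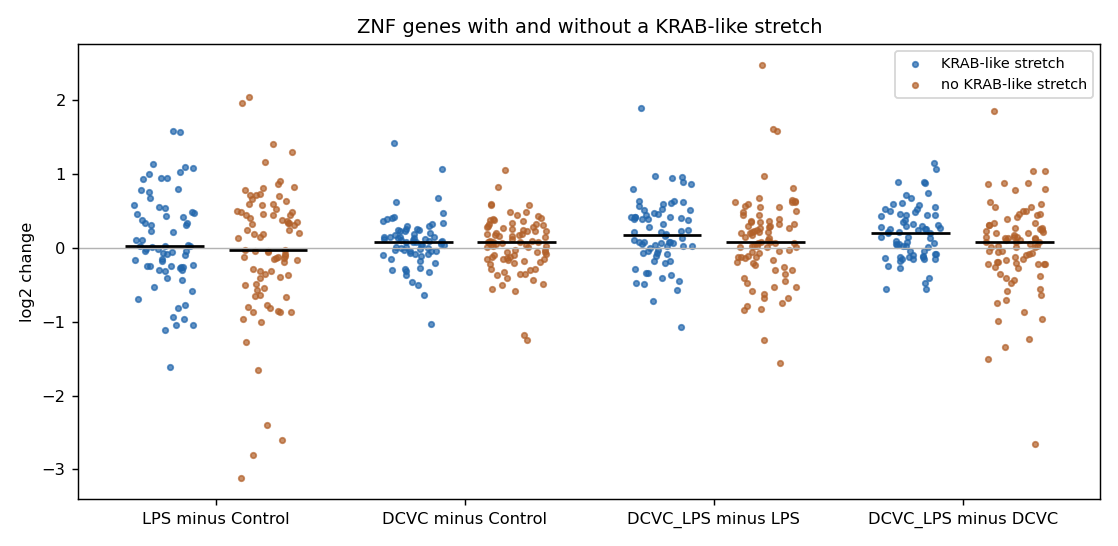
Log2 change of each ZNF gene in 4 comparisons, for 70 genes with a KRAB-like stretch (blue) and 85 without (brown), with black bars at the medians. The medians lie between -0.03 and 0.21 on the deposited scale, and the widest changes, down to -3.12 and up to 2.48, belong to genes without a KRAB-like stretch.

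Members that act on RNA and ribosomes formed a list of 10 expressed genes. In LPS against Control 7 rose and 2 fell, ZNF106 and ZNF330, with a median of 0.60, and 5 rose and 3 fell at equal totals, while 78.4% of all tested genes were called (37.8% raised and 40.6% lowered). ZNF598 rose as given above. ZNF207, also called BuGZ and known at spindle microtubules and in splicing, had 5183, 5458 and 5856 normalized counts in LPS cells, against 2695, 3049 and 3209 in Control cells, a log2 change of 0.87 ± 0.06 (limma adjusted p = 2.89e-12). The groups did not overlap. ZNF706 rose by 0.71 ± 0.06 and ZNF106, known in mouse as an RNA-binding protein of muscle, fell as given above. In DCVC_LPS against LPS 1 of the 10 rose, ZNF330 (0.56), and 5 fell, ZNF706 (-0.84), ZNF207 (-0.69), ZNF598 (-0.59), ZNF593 (-0.41) and ZNF622 (-0.26), against 33.3% raised and 39.4% lowered over all genes. At equal totals 5 rose and 3 fell, and the signs of ZNF593 and ZNF622 turned. The LPS change with DCVC less that without was -0.62 ± 0.09 (limma adjusted p = 9.86e-06) for ZNF598 and -0.65 ± 0.12 (limma adjusted p = 0.000147) for ZNF622, whose yeast relative Rei1 matures the large ribosomal subunit. ZNF207 shares 20.7% of its 50-base stretches with other transcripts and ZNF598 16.2%.

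Members of chromatin complexes formed a list of 11 expressed genes, of which 7 rose and 4 fell in LPS against Control, and 1 rose, ZNF335, and 7 fell at equal totals. Of all tested genes 78.4% were called there and 59.7% in DCVC against Control. ZNF335, a part of histone H3 lysine 4 methyltransferase complexes, had 1428, 1614 and 1731 normalized counts in LPS cells, against 767, 851 and 1106 in Control cells, and rose by 0.81 ± 0.08. The 4 falls were ZNF592 (-0.86), ZNF532 (-0.88) and ZNF687 (-0.15), partners of the chromatin reader ZMYND8, and ZNF318 (-0.80). In DCVC against Control 3 rose and 6 fell, with ZNF217 (-1.25) and ZNF609 (-0.50) lowest and ZNF131 (0.33), ZNF335 (0.24) and ZNF451 (0.16), a SUMO ligase, as the rises, and 3 rose and 2 fell at equal totals. In DCVC_LPS against LPS ZNF335 (0.30) and ZNF644 (0.19) rose and ZNF609 (-0.82) and ZNF217 (-0.53) fell, with 9 rises and 1 fall at equal totals, and 72.7% of all tested genes were called. ZNF644, a partner of the histone H3 lysine 9 methyltransferases G9a and GLP, changed after LPS by 0.37 ± 0.10 (limma adjusted p = 0.00267) more with DCVC than without. ZNF532 shares 11.1% and ZNF451 11.9% of their 50-base stretches with other transcripts.

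Members known to bind promoters formed a list of 10 expressed genes. In LPS against Control 6 rose and 3 fell, ZNF281 (-0.57), ZNF148 (-0.36) and ZNF384 (-0.13), and 3 rose and 4 fell at equal totals, against 37.8% raised and 40.6% lowered over all genes. ZNF384 shares 53.2% of its 50-base stretches with AC125494.1 and is uncertain. ZNF143, an activator of many housekeeping promoters, had 699, 965 and 1065 normalized counts in LPS cells, against 483, 573 and 625 in Control cells, a log2 change of 0.70 ± 0.08 (limma adjusted p = 2.93e-08). ZNF202, ZNF143 and ZNF263 (0.78) rose on both scales, while ZNF282 rose on the deposited scale (0.47) and stood at -0.0046 at equal totals. In DCVC against Control ZNF24 rose (0.29) and ZNF281 (-0.51) and ZNF76 (-0.36), a relative of ZNF143, fell, with 8 rises and 1 fall at equal totals, against 27.5% raised and 32.2% lowered over all genes. DCVC_LPS against DCVC had 4 rises, of ZNF202 (1.07), ZNF263 (0.44), ZNF143 (0.46) and ZNF24 (0.31), and 0 falls by limma, 0 also at an unadjusted p under 0.05 and by edgeR and DESeq2, with 3 rises and 5 falls at equal totals, against 29.9% and 32.2% over all genes.

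The partners through which KRAB proteins silence genes were taken as a list of 30, of which 29 were tested. In DCVC against Control 0 rose and 11 fell by limma, with 0 rises also at an unadjusted p under 0.05 and by edgeR and DESeq2, while 13 rose and 5 fell at equal totals. The 37.9% that fell stand beside 32.2% of all tested genes that fell and 27.5% that rose. DNMT1, the maintenance DNA methyltransferase, had a log2 change of -1.36 ± 0.07, the heterochromatin protein CBX3 of -0.80 ± 0.09 and TASOR, of the HUSH silencing complex, of -0.53 ± 0.05, and these 3 fell on both scales. In LPS against Control 11 rose and 9 fell (5 and 20 at equal totals), against 37.8% and 40.6% of all genes, with DAXX (1.29), MTA2 (0.75) and MORC2 (0.81) among the rises and DNMT1 (-1.85), DNMT3A (-1.37) and HDAC1 (-0.58) among the falls. These 6 kept their direction at equal totals, a rescaling that could not turn the falls. In DCVC_LPS against LPS RBBP4 (0.30), CHD4 (0.22) and DNMT3A (0.24) rose and 15 fell (17 and 5 at equal totals), against 33.3% and 39.4% of all genes, with, among the falls, MORC2 (-0.77), CBX3 (-0.96) and DAXX (-0.69). TRIM28, the hub of the list, averaged 5181 ± 428 normalized counts in DCVC_LPS cells, 6713 ± 983 in LPS cells, 4582 ± 459 in DCVC cells and 4447 ± 835 in Control cells (mean ± SD, n = 6 each). Its change was 0.60 ± 0.10 (limma adjusted p = 1.08e-05) in LPS against Control and -0.37 ± 0.10 (limma adjusted p = 0.00283) in DCVC_LPS against LPS, where the sign turned at equal totals (0.06). SETDB1 changed by 0.33 ± 0.04 in LPS against Control, and by -0.15 at equal totals.

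ZNF genes below the threshold moved in another proportion. Of the 244 with a mean between 10 and 300, 32 rose and 158 fell in LPS against Control, with a median log2 change of -0.56. Among all genes in that range 25.3% rose and 47.4% fell, and of these ZNF genes 13.1% rose and 64.8% fell. In DCVC_LPS against LPS 149 of the 244 rose and 26 fell, with a median of 0.48, where among all genes in that range 39.2% rose and 29.8% fell. At equal totals the counts were 9 and 209 in LPS against Control and 206 and 11 in DCVC_LPS against LPS. That rescaling moved the median of all tested genes the same way, to -0.50 and 0.36, so it could not test these directions. Among 20 tested genes of the related ZSCAN and ZKSCAN families 14 rose and 0 fell in DCVC_LPS against LPS by limma, with 0 falls also at an unadjusted p under 0.05 and by edgeR and DESeq2, and with 20 and 0 at equal totals. Of 32 ZBTB genes 13 rose and 9 fell there, and 24 and 3 at equal totals. Over all tested genes 33.3% rose and 39.4% fell in that comparison.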

How the data were processed

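Poly-A RNA was sequenced in 24 libraries, 6 in each of 4 groups, which the sample titles give. Per the submitters' processing notes the build was hg38 and the tools were featureCounts 1.6.1, STAR, DESeq2 1.24.0 under R 3.6.0, MultiQC 0.9 and FastQC 0.11.5. The annotation and strand setting of the counting, and the fate of reads with several hits, are not stated there or in the labels. The deposited table holds a signal, gene counts that the authors divided by a size factor for each library, called normalized counts. Multiplied back, 100% of the values were whole reads within 0.1 read. Because the table holds no raw counts, the main test was limma 3.58.1 (R 4.3.3, empirical Bayes with trend) on log2(normalized count + 1), in 1 fit of all 24 libraries with 20 residual degrees of freedom. Fold changes on that scale understate those of low genes. It covered 13900 genes with a mean of at least 10, with Benjamini-Hochberg adjustment over all of them and calls at an adjusted p under 0.05. edgeR 4.0.16 and DESeq2 1.42.0 on the recovered reads were alternatives. The deposited table has 58381 entries, of which 19595 carry no gene name and hold 0.986% of the values, and these were left out. A further 51 symbols on 2 entries were summed. The labels' protocol also names DCVC at 1 and 10 µM, but the 24 samples used here all belong to the 4 groups with no DCVC or 5 µM.

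The members, the gene lists and the tests were chosen with earlier results of these data known. Named genes are, among those called with no overlap of the groups, the 8 largest changes in each direction in the first 3 comparisons. In DCVC_LPS against DCVC they are the 5 largest by the same rule. For the difference between the LPS changes they are the 5 largest called in each direction, with no condition on overlap. Added to these are the 3 highest levels, the threshold's neighbours and up to 4 genes of each role list in each comparison. Other genes named beside small counts were picked after their values were seen. Every ± is an SD over 6 libraries for a level and a standard error for a log2 change. KRAB-like means a score of at least 40 (BLOSUM62) against the 34 residues of the KRAB A box of ZNF10, in proteins translated from GENCODE 29 transcripts (GRCh38). Shared stretches are windows of 50 bases of a transcript that occur in another gene's transcripts, and 30 members share at least 10% of theirs. Genome positions are those of GENCODE 29, and promoters come from RefSeq (GRCh38.p14). The ZNF143 motif was shortened to a core after matches of a longer form had been seen. Libraries with the same letter deviated from their group means together, with correlations from 0.134 to 0.539 in 36 pairs (median 0.33, against -0.114 for letters of different letter pairs), and so did the other letter of a pair (A and B, C and D, E and F), from 0.0522 to 0.464 (median 0.286), so the letters were taken to pair the libraries and a fit with the letter as a block was the alternative. The labels do not say what the letters mark. No 2 libraries were alike within sampling noise. A fit of the means of letter pairs, 3 values in each group, was added after seeing the data.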

Additional observations from a re-analysis of the deposited data

Results flagged for a closer look

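A single library stood apart from the other 5 of its group in 5 of the 160 groups of the 40 named genes, and chance gives about 1 in 20. ZNF121 had 732.8 normalized counts in the DCVC_LPS library lettered C, against a group median of 666.3. ZNF142 had 706.2 in the DCVC library lettered B, against a median of 586.4. ZNF706 had 2392 in the LPS library lettered F, against a median of 2759. ZNF639 had 407.2 in the Control library lettered F, against a median of 326.7. ZNF500 had 272.6 in the LPS library lettered A, against a median of 224.3.

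The LPS change with DCVC differed from that without it, by the limma test of the difference itself, in 28 of the 40 named genes. Named genes were picked for large changes, some of them in this same difference, so a high count was built in. Of all members 45.8% were called, and of all tested genes 45.7%. The difference was above 0 for ZNF521 (1.89), ZNF516 (1.81), ZNF469 (1.18), ZNF703 (1.06), ZNF100 (1.06), ZNF561 (1.05), ZNF438 (1.02), ZNF746 (0.84), ZNF217 (0.72), ZNF791 (0.67), ZNF302 (0.65), ZNF736 (0.56), ZNF281 (0.54) and ZNF319 (0.26). It was below 0 for ZNF503 (-2.62), ZNF778 (-0.91), ZNF710 (-0.84), ZNF692 (-0.69), ZNF593 (-0.66), ZNF598 (-0.62), ZNF366 (-0.53), ZNF202 (-0.49), ZNF324 (-0.45), ZNF639 (-0.43), ZNF207 (-0.40), ZNF706 (-0.40), ZNF609 (-0.33) and ZNF140 (-0.26). Among the genes above 0, ZNF521, ZNF516, ZNF469, ZNF703, ZNF561 and ZNF100 are falls named for LPS against Control, and among those below 0, ZNF503, ZNF778, ZNF593, ZNF598, ZNF202 and ZNF140 are rises named there. The comparisons share their LPS and Control libraries, so these are 1 set of values seen from 2 sides. ZNF503 passed the level threshold only through its LPS libraries, so its value, though counted among the 28, is a description. A mean under 300 in some group was also that of ZNF521, ZNF100, ZNF438, ZNF302, ZNF736, ZNF366, ZNF778, ZNF324, ZNF639 and ZNF140. With the means of letter pairs the difference did not pass the test for ZNF217, ZNF319, ZNF366, ZNF609, ZNF639, ZNF692 and ZNF140 (limma adjusted p between 0.0513 and 0.205).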

How the results depend on the processing

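Between the deposited scale and equal totals, the direction with more called members turned in LPS against Control and in DCVC_LPS against DCVC. It stayed the same in DCVC against Control, in DCVC_LPS against LPS and for the difference between the LPS changes. In each of these, equal totals raised the median change of all tested genes, to 0.22, 0.36 and 0.20 on the log2 scale. The direction with more calls was already upwards there, so this rescaling could not have turned it. With TMM factors that difference was above 0 in 33 members and below 0 in 35. At equal totals the members raised and lowered numbered 29 and 95 in LPS against Control, 101 and 10 in DCVC against Control, 123 and 10 in DCVC_LPS against LPS, 30 and 79 in DCVC_LPS against DCVC, and 74 and 14 for the difference between the LPS changes. The counts on the deposited scale each stayed within 1.5 times under pseudocounts of 0.5 and 10, the filters on low values and TMM factors. They also did so in fits of only the 2 groups compared and with edgeR and DESeq2. On the recovered reads with the deposited factors edgeR called 122, 83, 101, 97 and 71 members in these comparisons. Within the libraries lettered E and F, 41 members were called in DCVC against Control (23 raised and 18 lowered), 18 were lowered in DCVC_LPS against DCVC, and 30 differed between the LPS changes (22 above and 8 below). Within A and B 27 differed above 0. Leaving out 1 library left 116 to 122, 75 to 80, 100.0 to 106, 89 to 94 and 68 to 76 members called, and leaving out 1 letter left 117 to 118, 68 to 79, 96 to 102, 86 to 92 and 55 to 70. With thresholds of 100 and 600 the share of members called was 80.4% and 87.8% in LPS against Control and 70.3% and 60.8% in DCVC_LPS against LPS.

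With the letter as a replicate block 128, 91, 114, 104 and 91 members were called, with 0, 1, 0, 0 and 0 calls lost and 5, 11, 9, 9 and 20 gained. Of the named values only ZNF516 in DCVC against Control lost its call under the block, at -0.23 (limma adjusted p = 0.0516). A block on the letter pair, added after seeing the data, gave 128, 93, 114, 105 and 92. The means of letter pairs, also added after seeing the data, gave 109, 50 (30 raised and 20 lowered), 82, 70 and 39 (25 above and 14 below), with 14, 31, 23, 25 and 32 calls lost and 0 gained. Of the changes given in the text, those of ZNF384, ZNF687, ZNF276 and ZNF766 in LPS against Control, of ZNF335, ZNF451 and ZNF862 in DCVC against Control, of ZNF622, ZNF644, CHD4 and DNMT3A in DCVC_LPS against LPS and of ZNF503, ZNF276 and ZNF91 in DCVC_LPS against DCVC then missed the threshold (limma adjusted p between 0.0713 and 0.201).

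Of 6789 recomputed values for 189 changes of named genes 6549 kept direction and call, 222 kept the direction but not the call and 18 turned. At equal totals LPS against Control turned for ZNF746 (-0.17), ZNF217 (-0.16, and -0.11 within E and F), ZNF7 (-0.065), ZNF609 (-0.23), ZNF24 (-0.14) and ZNF282 (-0.0046). DCVC against Control turned for ZNF516 (0.023), ZNF41 (0.049) and ZNF592 (0.051), and DCVC_LPS against DCVC for ZNF142 (-0.023). DCVC_LPS against LPS turned for ZNF121 (0.075), ZNF593 (0.018), ZNF319 (0.13), ZNF41 (0.084), ZNF263 (0.064) and ZNF282 (0.086). The difference for ZNF319 stood at -0.021 within E and F. The cause was not tested. Between 18478618 and 30107819 reads a library lay behind these values.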
